A study of Schmidtea mediterranea with 100 samples.

Results

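The transcripts described here are 33 unnamed transcripts of the planarian flatworm Schmidtea mediterranea that stood at similar levels in 3 sorted cell populations, RNA-low, G1 and PM, and at a clearly lower level in the remaining one, S/G2/M. They were chosen by their bulk levels, so these levels are given as a description and without a test. The level is in CPM, counts per 1000000 reads, which scales the reads of a transcript to the total of its library. A transcript was included when its identifier carried no gene name, it reached at least 50 CPM in RNA-low, G1 and PM, these 3 levels were less than 2-fold apart, and each was at least 3 times the S/G2/M level. Of 67386 transcripts measured in bulk, 67221 had no gene name, 2045 of those reached 50 CPM in the 3 gates, 1707 of those were within 2-fold, and 33 passed the last step. All 33 carry an identifier of the SmedASXL assembly and no annotation, so nothing is said of what they encode, and their sequences were not analysed here.

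Whole animals of the clonal asexual strain CIW4, reared on beef liver and with no other treatment or age given in the labels, were dissociated. Their cells were stained with Hoechst, which binds DNA, and pyronin Y, which binds RNA, before sorting. Each of the 4 gates (RNA-low, G1, PM and S/G2/M) gave 1 bulk library, and 96 single cells came from the RNA-low gate. PM is not written out in the labels, which also do not name animals, pools or sorts, so the 96 cells count as 1 sample. The G0 column of the bulk table was used for RNA-low, since G0 also begins the names of the RNA-low single cells. No difference between gates has a replicate check, since each gate was sequenced as 1 library, and every interval below covers counting error only.

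Planarians hold a large population of dividing stem cells, the neoblasts, from which all other cell types are renewed. The S/G2/M gate takes cells whose DNA content is above that of a resting cell, which in these animals are mostly cycling neoblasts. A gate with the lower DNA content can hold neoblasts between divisions together with their progeny and differentiated cells. A transcript low in S/G2/M and even elsewhere takes a smaller share of the S/G2/M library than of the other libraries. Whether it is less abundant in cells that replicate DNA or divide was not tested, since each gate was sequenced without a replicate. In a bulk library fewer cells of a type and less RNA per cell cannot be told apart.

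The bulk libraries held 47338591 to 74968402 reads. S/G2/M had the most reads and the fewest detected transcripts, 34757, against 37093 in PM, 51611 in G1 and 58905 in RNA-low, and the part of this in the levels below was not tested. The most frequent read count above 1 was 5, 10 and 26 in the RNA-low, G1 and PM libraries and 22 in the S/G2/M library, and each starting fragment was taken as read about that often, so intervals rest on reads divided by these numbers. Ribosomal RNA took 16.8% to 35.1% of reads, most in PM. The replication and mitosis genes PCNA, mcm2 and CyclinB2 had a summed level of 790 CPM in S/G2/M against 92.5 in RNA-low, 267 in G1 and 79.3 in PM, and all 3 were highest in S/G2/M. The 4 neoblast genes summed to 7704 CPM in RNA-low, 6295 in G1 and 3386 in PM, but 9031 in S/G2/M. They did not all go the same way. Only piwi-1 (3208 CPM) and bruli (710 CPM) were highest in S/G2/M. In RNA-low against S/G2/M, piwi-2 stood at 3409 against 3367 CPM and piwi-3 at 2341 against 1745 CPM. None of the 4 was lowest in S/G2/M. Markers of differentiated cells were mixed. Both neuronal genes, COE and elav-2, were lowest in S/G2/M, with a sum of 15.5 CPM there against 144 in RNA-low, 52.0 in G1 and 37.9 in PM. The muscle gene titin was also lowest there, at 0.454 against 3.16 to 12.8 CPM. Titin was low in all 4 gates, and its S/G2/M level lay near the floor of what could be counted. The 18 early epidermal progeny transcripts summed to 1926 CPM in RNA-low and 5645 in S/G2/M, with 32609.5 in G1 and 20095 in PM. None of the 18 was lowest in S/G2/M, and 5 of them were highest there. The epidermal gene vim-1 was lowest in RNA-low at 2.09 CPM and stood at 112 in PM, and the intestinal porcupine genes went opposite ways. Of these porcn-B was lowest in S/G2/M, at 27.7 CPM against 33.0 to 47.1, and porcnA was highest there, at 118 against 69.7 to 98.3 CPM. In the RNA-low single cells COE had a read in 1 and elav-2 in 6 of the 79 cells described below. Their RNA-low bulk levels were 78.8 and 65.7 CPM. Other unnamed transcripts between 50 and 100 CPM there had a read in a median of 8 cells, with a range of 1 to 78. The part of neuronal, muscle or intestinal cells in the levels of the 33 transcripts was not tested.

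In RNA-low the 33 transcripts ranged from 55.0 to 361 CPM with a median of 104. The median was 95.5 CPM in G1, with a range of 53.1 to 294, and 76.3 CPM in PM, with a range of 50.2 to 218. In S/G2/M they ranged from 7.34 to 69.4 CPM with a median of 19.9. The gates overlap across transcripts, since the most abundant ones in S/G2/M exceeded the least abundant ones elsewhere, but each transcript was lowest in S/G2/M by the rule. Summed over the 33, the level was 734 CPM in S/G2/M against 4088, 3900 and 3088 CPM in RNA-low, G1 and PM. The mean of the 3 gates was a median of 4.88 times the S/G2/M level. Over the 2012 other unnamed transcripts that reached 50 CPM in the 3 gates this median was 1.12.

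**Figure D1:**
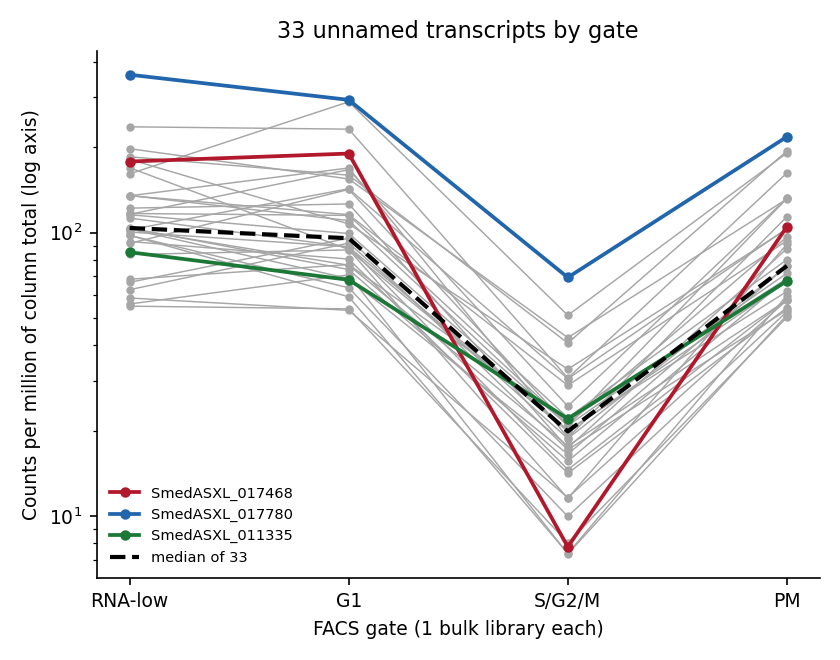
Level of each of the 33 transcripts in the 4 bulk libraries, in CPM on a log axis; each line is 1 transcript, the dashed line is the median, and 3 transcripts named in the text are coloured. The median line is lowest in S/G2/M, at 19.9 CPM, and stands at 104, 95.5 and 76.3 CPM in RNA-low, G1 and PM.

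SmedASXL_017468 had the largest ratio. It stood at 7.76 CPM in S/G2/M against 178 in RNA-low, 190 in G1 and 105 in PM, so its lowest gate outside S/G2/M, PM, was 13.5 times the S/G2/M level (95% interval 9.10 to 21.6). Its S/G2/M level rested on an estimated 26 fragments. SmedASXL_011092 was at 97.8 CPM in RNA-low, 59.3 in G1 and 60.0 in PM, but 7.36 in S/G2/M, and G1, the lowest of the 3, was 8.06 times S/G2/M (interval 5.38 to 12.7). SmedASXL_018991 had the same shape, highest in RNA-low and near equal in G1 and PM, with 11.5 CPM in S/G2/M against 169 in RNA-low, 87.1 in G1 and 91.0 in PM, and a ratio of 7.56 (interval 5.49 to 10.8). SmedASXL_005245 was less abundant and flatter, at 56.0, 70.9 and 51.2 CPM in RNA-low, G1 and PM against 7.34 in S/G2/M, the lowest S/G2/M level of the 33. Its ratio of 6.97 had an interval of 4.44 to 11.3.

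Of the 3 most abundant transcripts, 2 lay near the threshold. SmedASXL_017780 was at 361 CPM in RNA-low, 294 in G1 and 218 in PM, but 69.4 in S/G2/M, and its lowest gate was 3.14 times S/G2/M (interval 2.66 to 3.70). SmedASXL_007048 was highest in G1, at 290 CPM against 161 in RNA-low, 51.0 in S/G2/M and 191 in PM, with a ratio of 3.16 (interval 2.70 to 3.71). SmedASXL_009346, the other abundant one, lay well above it. Its levels of 236 CPM in RNA-low, 232 in G1 and 162 in PM stood against 30.6 in S/G2/M, a ratio of 5.30 (interval 4.25 to 6.73).

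Over all 33, the ratio of the lowest of the 3 gates to S/G2/M was between 3 and 4 for 18 transcripts, between 4 and 6 for 9 and at least 6 for 6. For 17 of the 33 the 95% interval of this ratio reached below 3. The intervals rest on the same counts that chose the transcripts and give only the width of counting error. Estimated fragments of a transcript numbered 25 to 237 in S/G2/M (median 68), 91 to 397 in PM (median 139), 287 to 1591 in G1 and 631 to 4143 in RNA-low. Just inside the threshold were SmedASXL_011335 at 3.07 (22.0 CPM in S/G2/M and 67.5 in PM, its lowest other gate) and SmedASXL_011237 at 3.08 (20.1 and 62.0 CPM). Just outside it were SmedASXL_012714 at 2.99 (52.2 CPM in S/G2/M and 156 in PM) and SmedASXL_009286 at 2.98 (19.5 CPM in S/G2/M against 58.0 in G1). The intervals of both transcripts just inside reached down to 2.28.

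The 33 are 1.93% of the 1707 unnamed transcripts that were even across RNA-low, G1 and PM, a share that the rule itself fixes. They are the upper end of a continuous distribution, in which 154 transcripts reached 2-fold and 71 reached 2.5-fold. In the opposite direction 0 of the 1707 (0%) had S/G2/M at least 3 times each of the other gates. The floor of 50 CPM was set in RNA-low, G1 and PM, the gates that would be low in this direction. It removes transcripts with little expression outside S/G2/M beforehand, so this 0 cannot be set against the 33. Each gate taken alone gave far more transcripts 3-fold above S/G2/M. Among unnamed transcripts at 50 CPM or more in the gate, 15.5% were at least 3 times S/G2/M in RNA-low, 9.25% in G1 and 12.9% in PM.

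**Figure D2:**
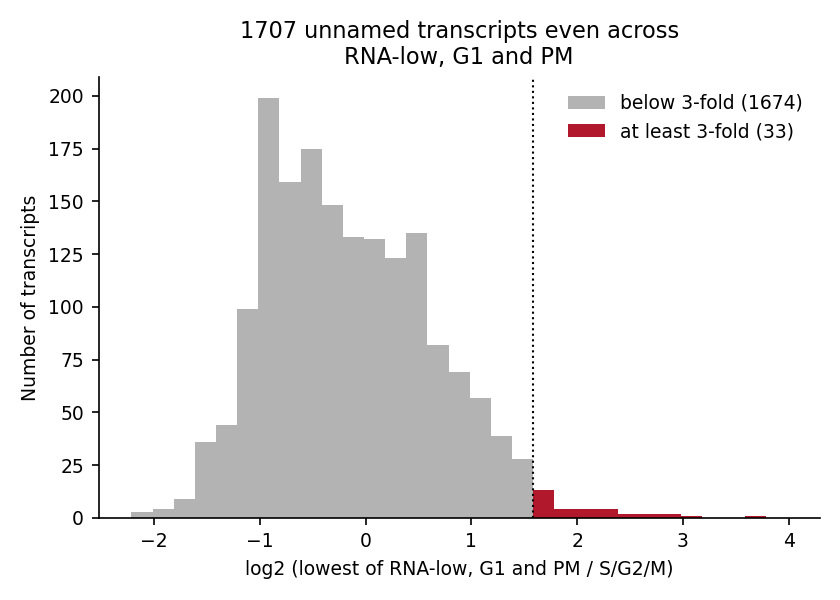
Number of unnamed transcripts by the log2 ratio of the lowest of RNA-low, G1 and PM to S/G2/M, for the 1707 that reached 50 CPM in these 3 gates and were within 2-fold there; the dotted line marks 3-fold. The 33 in red lie to its right, where the bars continue the falling slope of the grey ones.

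Within the 2-fold limit the 33 still differed in which gate they favoured. RNA-low was the highest of the 3 for 20 transcripts, G1 for 12 and PM for 1, and 16 followed the order RNA-low above G1 above PM. Among the 1674 other unnamed transcripts that were equally even, RNA-low was highest for 50.2% and G1 for 46.4%. Of these 1674, 795 followed the same order, a share similar to that of the 33. The ratio of RNA-low to G1 ran from 0.557 to 1.94 with a median of 1.13, against a median of 1.01 in those others. PM was the lowest of the 3 for 22 of the 33, or 66.7%, against 85.3% of the others. With ribosomal RNA left out of the totals it was the lowest for 10 of the 33 and 47.8% of the others. With the other scalings described below, TMM and median-of-ratios, PM was the lowest for 18 of the 33 each. Among the others it was then the lowest for 78.6% and 76.2%. The median ratio to S/G2/M was 5.55 for RNA-low, 5.18 for G1 and 4.06 for PM, and 5.21, 4.86 and 4.88 without ribosomal RNA. For G1 and PM it was 4.15 and 3.59 with TMM and 3.72 and 3.27 with median-of-ratios scaling. PM thus stood below G1 in these medians except when ribosomal RNA was left out.

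The only named gene that met the same numeric rule was Med1, which encodes a subunit of Mediator, the complex that links transcription factors to RNA polymerase. It stood at 21.9 CPM in S/G2/M against 146 in RNA-low, 106 in G1 and 82.6 in PM, and PM was 3.77 times S/G2/M (interval 2.82 to 5.01). Of 29 named genes at 50 CPM in the 3 gates, the 5 largest ratios belonged to Med12, Med1, chd4, NF1 and hnf6. Med12, of the kinase module of Mediator, was at 132 CPM in RNA-low, 88.7 in G1 and 52.2 in PM with 11.4 in S/G2/M, a ratio of 4.56 (interval 3.11 to 6.80), and its RNA-low level was over 2-fold above PM. The chromatin remodeller gene chd4 was likewise too uneven, at 81.3 CPM in S/G2/M against 633 in RNA-low, 398 in G1 and 284 in PM, with a ratio of 3.50 (interval 3.01 to 4.06). NF1, which encodes a negative regulator of Ras, fell short of 3-fold at 2.87 (150 CPM in RNA-low, 124 in G1 and 79.5 in PM, but 27.7 in S/G2/M). So did hnf6, a homeobox transcription factor gene, at 2.62 (63.3, 51.7 and 50.0 CPM in RNA-low, G1 and PM against 19.1 in S/G2/M).

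Likeness was also measured as the distance between centred log2 levels over the 4 gates and the median profile of the 33, with 0.5 CPM added. The named genes nearest to that profile were Med1 at 0.28, NF1 at 0.40, chd4 at 0.52, castor at 0.64 and mex3-1 at 0.68. The 33 themselves lay 0.15 to 1.74 from it, with a median of 0.45, so Med1 and NF1 lay nearer to the profile than that median. Both castor, a zinc finger transcription factor gene (17.4 CPM in S/G2/M against 73.0 in RNA-low, 52.0 in G1 and 40.8 in PM), and mex3-1, an RNA-binding protein gene (223 CPM in S/G2/M against 954, 705 and 476 in RNA-low, G1 and PM), had ratios between 2 and 3. Only 4 points enter each distance, and 1 library stands behind each point.

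The 96 RNA-low single cells were not used to choose the transcripts. Among them 79 with at least 500 detected transcripts were kept, and they had a median of 2075 transcripts. A read of a given transcript was found in 3 to 60 of the 79 cells, with a median of 15 (19.0%). Over the 2012 other unnamed transcripts at 50 CPM in the 3 gates the median was 13 cells (16.5%), at a median RNA-low bulk level of 138 CPM against 104 for the 33. At like bulk levels the medians were also near each other. Between 50 and 100 CPM they were 10.5 cells for 12 of the 33 and 8 for 614 others, and between 100 and 200 CPM they were 15 cells for 19 and 12 for 768. The range of the 33 lay within that of the others, which was 1 to 79 cells.

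SmedASXL_018628 was read in the most cells, 60 of 79 (75.9%, Clopper-Pearson 95% interval 65.0 to 84.9), although its bulk level of 58.7 CPM in RNA-low was among the lowest of the 33. It was near even in G1 (53.1 CPM) and PM (57.8 CPM), with 11.6 CPM in S/G2/M. It was also read in 10 of the 17 cells left out for few transcripts (58.8%). In those 17 cells 21 of the 33 (63.6%) had no read at all, close to 59.8% of the other unnamed transcripts described above. SmedASXL_018300, at 122 CPM in RNA-low, 126 in G1 and 87.8 in PM, but 17.4 in S/G2/M, was read in 51 kept cells, or 64.6% (interval 53.0 to 75.0), and in 1 left-out cell. SmedASXL_018611, at 83.7, 86.8 and 66.9 CPM in RNA-low, G1 and PM and 19.9 in S/G2/M, was read in 44, or 55.7% (interval 44.1 to 66.9), and in 4 left-out cells. No other transcript of the 33 was read in 50% or more of the kept cells, so these 3 are 9.09% of the 33 against 9.34% of the others.

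At the other end SmedASXL_005245, which had the fourth largest bulk ratio, was read in 3 kept cells (3.80%, interval 0.79 to 10.7). SmedASXL_006532 was read in 4 (5.06%, interval 1.40 to 12.5), with 16.5 CPM in S/G2/M against 103 in RNA-low, 68.8 in G1 and 76.3 in PM. SmedASXL_012987 was read in 5 (6.33%, interval 2.09 to 14.2), with 21.6 CPM in S/G2/M and 68.4, 77.1 and 68.8 in RNA-low, G1 and PM. None of these 3 had a read in the 17 cells left out. Across the 33, the number of cells with a read followed the RNA-low bulk level only loosely, with Spearman's rho of 0.22, against 0.66 across the 2012 others, which span a wider range of levels. It was as loosely related to the ratio over S/G2/M, with a rho of 0.22. These are correlations across transcripts of the same libraries, and transcripts are not independent replicates.

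**Figure D3:**
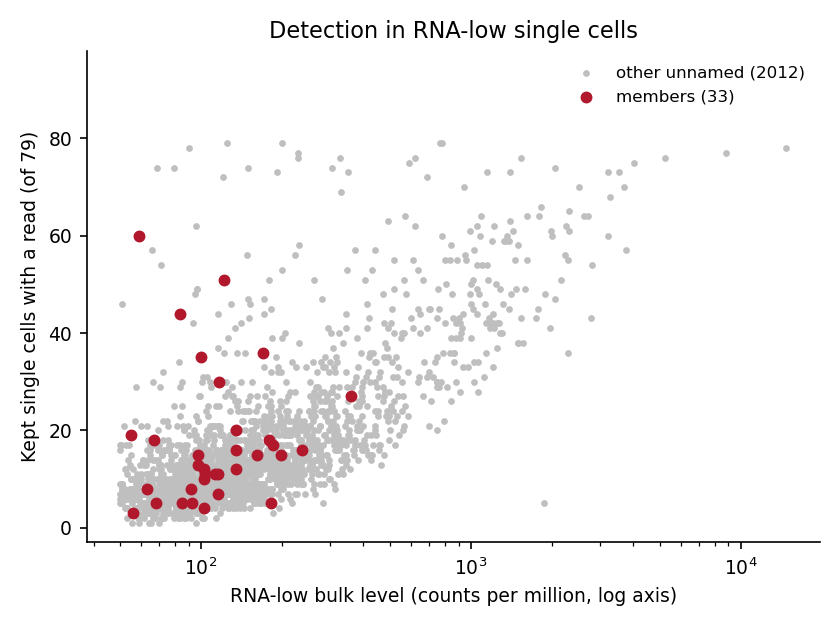
Kept RNA-low single cells with at least 1 read of a transcript, out of 79, against the RNA-low bulk level in CPM on a log axis; grey points are the 2012 other unnamed transcripts at 50 CPM in the 3 gates and red points the 33. Most red points lie within the grey cloud at 3 to 20 cells. Others lie at 27, 30, 35 and 36 cells, and 3 lie at 44, 51 and 60 cells.

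A kept cell had reads of 0 to 23 of the 33 transcripts, with a median of 7, and a left-out cell of 0 to 4 with a median of 2. This number followed the number of all transcripts detected in the cell, with Spearman's rho of 0.73 over 79 cells, which share the depth of the cell. The 51 kept cells with a read of piwi-1, a neoblast marker, had a median of 7 of the 33 and 2213 detected transcripts, and the 28 without one had 6.5 and 2012.5. The share of cells with a read was higher in the cells with piwi-1 for 23 of the 33 (69.7%), close to the 67.9% of the 2012 others.

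**Figure D4:**
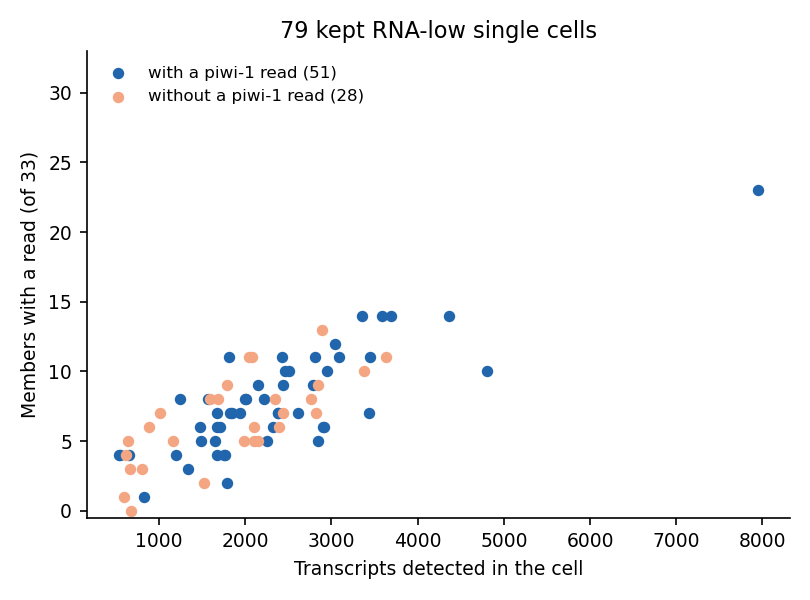
Number of the 33 transcripts with a read in each of the 79 kept cells against all transcripts detected in that cell; colour shows whether piwi-1 had a read (51 cells) or not (28 cells). Both colours follow the same rising band, and 1 cell with 7946 detected transcripts had reads of 23.

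How much of the single-cell reads the transcripts took was a further measure. Reads were summed over the 79 kept cells and set against the RNA-low bulk library, both as CPM of reads other than ribosomal RNA. The ratio of pooled cells to bulk had a median of 1.26 over the 33, with quartiles of 0.57 and 2.01, and of 0.36 over the 2012 others, with quartiles of 0.18 and 0.66. The median of the 33 was thus 3.50 times that of the others, and 24 of the 33 lay above the upper quartile of the others. In cells with a read the median was 41 reads for the 33 and 22 for the others, and cells with a read were about as many, as described above. The bulk and single-cell libraries were made with different kits, so a ratio above or below 1 has no meaning of its own, and transcripts were compared only with each other. The cause of the difference was not tested.

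A few cells carried much of these reads. The cell with the most reads of a transcript held 7.65% of them for SmedASXL_018628 and 97.7% for SmedASXL_005245, with a median of 41.6% over the 33 and 38.1% over the others. Without that cell for each transcript, the medians were 0.46 and 0.19, so the 33 remained 2.42 times the others. Across all 2045 unnamed transcripts at 50 CPM in the 3 gates, the pooled-to-bulk ratio went up in steps with the bulk ratio over S/G2/M. Its median was 0.24 where the lowest gate was under 0.5 times S/G2/M, 0.31 between 0.5 and 1, 0.44 between 1 and 2, 0.51 between 2 and 3 and 0.93 at 3 or more, over 271, 935, 627, 158 and 54 transcripts. The last step holds the 33 and 21 transcripts that were over 2-fold apart among RNA-low, G1 and PM. A pooled-to-bulk ratio above 1 was found for 26 of the 54 in this step, and 21 of the 33 were among these. In the step between 2 and 3 it was found for 34 of 158 (21.5%). The 33 and the 21 were parted by the 2-fold limit, which uses the RNA-low bulk level. That level also divides the pooled level, so the split of the last step is not independent of the rule. Spearman's rho over the 2045 was 0.28, as a description across transcripts that share the RNA-low bulk library in both ratios. With the number of kept cells with a read, the bulk ratio over S/G2/M had a rho of -0.13 over the same 2045.

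**Figure D5:**
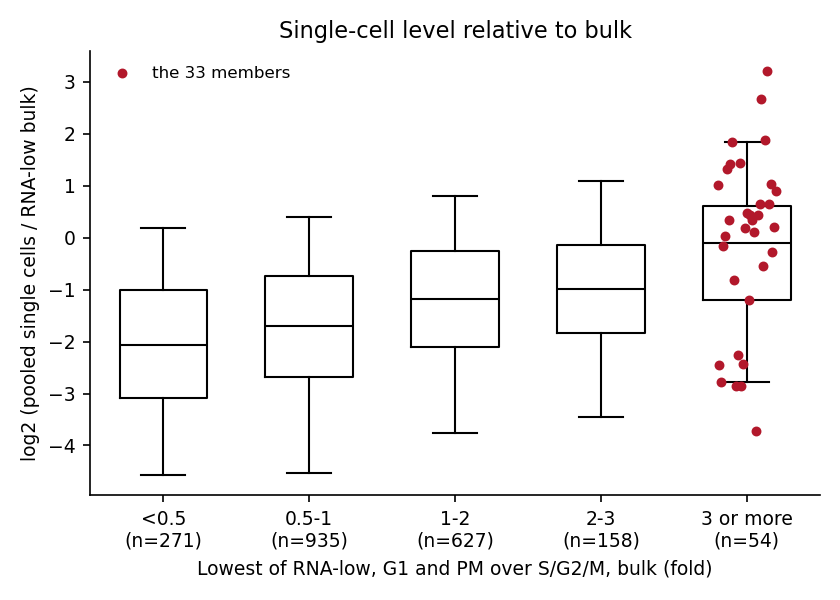
Log2 ratio of the pooled level in 79 RNA-low single cells to the RNA-low bulk level, for unnamed transcripts grouped by how many times S/G2/M their lowest other gate stood; boxes show quartiles and median, whiskers the 5th and 95th percentiles, and red points the 33. The medians go up from left to right, and most red points lie above the boxes of the 4 groups on the left.

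Among the 33, some identifiers were close in number, and these pairs were looked at after their values had been seen. SmedASXL_018631 (117 CPM in RNA-low, 115 in G1 and 80.2 in PM, but 22.2 in S/G2/M) and SmedASXL_018632 (100.4, 89.1 and 58.0 CPM in these 3 gates, but 14.6 in S/G2/M) were read together in 27 kept cells, which is 90.0% of the 30 cells of the first and 77.1% of the 35 of the second. Their read counts had a Spearman's rho of 0.81 over the 79 cells, the highest of 528 pairs, for which the second highest was 0.47 and the median 0.05. Whether their sequences are alike was not tested, and how the counting divided reads between like transcripts is not known from these sources. The levels of these 2 are therefore uncertain, and they may not be separate observations. SmedASXL_018628, 3 numbers below the first of them, had a rho of 0.04 and 0.03 with this pair, and SmedASXL_018300 and SmedASXL_018302 also had a rho of 0.04.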

How the data were processed

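The authors deposited raw counts, a bulk table and a single-cell table with 1 row per transcript. The submitters' processing notes name bcl2fastq 1.8.3 and Bowtie2; no counter, filter or transcript set is named in the sources used here. TruSeq was used for bulk and Smart-seq2, without molecular identifiers, for cells, per the labels' protocols. Counts were divided by column totals for CPM. Ratio intervals are exact conditional binomial 95% intervals on estimated fragments, and shares have Clopper-Pearson intervals (scipy 1.17.1). Alternatives used TMM (edgeR 4.0.16), median-of-ratios factors (DESeq2 1.42.0, R 4.3.3) and totals without ribosomal RNA. The rule was run on simulated libraries that differed by counting error and set depletions only. This cannot show how it behaves with 1 real library per gate. All 100 columns were used. No 2 cells had identical counts.

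Members, marker lists and thresholds were chosen with earlier results of these data known. Printed by rule were the 4 largest ratios, the 3 highest means, the 2 transcripts on each side of 3-fold, and the 3 read in most and the 3 in fewest cells (ties by bulk level), with the 5 named genes of largest ratio and the 5 nearest in profile.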

Additional observations from a re-analysis of the deposited data

How the results depend on the processing

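The number of transcripts passing the rule depended on every threshold and scaling. It was 100 with totals without ribosomal RNA (30 of the 33 among them), 19 with TMM (17 of the 33) and 16 with median-of-ratios scaling (13 of the 33). It was 111 at a floor of 20 CPM and 10 at 100 CPM, 154 at 2 times and 15 at 4 times S/G2/M, and 54 with no limit on the spread of the 3 gates. The changed scalings moved the S/G2/M level of every transcript up by 0.18 to 0.36 on the log2 scale. Without ribosomal RNA the other gates went up too, by 0.27 in RNA-low and G1 and 0.62 in PM, against 0.36 in S/G2/M. With TMM and median-of-ratios scaling RNA-low moved by -0.05 and -0.12, G1 by -0.14 and -0.19 and PM by 0.01 and -0.03. The lowest gate of 30, 20 and 16 of the 33 stayed at least 3 times S/G2/M, in the order of scalings above. The median ratio of the mean of the 3 gates over S/G2/M ran from 3.71 with median-of-ratios scaling to 5.02 without ribosomal RNA, and was 4.72 with 0.5 CPM added. The median share of cells with a read was 12.7% at 5 or more reads, 15.6% over all 96 cells and 20.6% over the 68 cells with at least 1000 transcripts. Alternatives on the favoured gate, on single gates over S/G2/M and on the pooled cells were chosen after seeing the data; RNA-low was highest of the 3 for 17 to 21 of the 33. No paired analysis was possible because each gate had 1 library. S/G2/M depth, an estimated 25 to 237 fragments a transcript, limits single ratios.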
